A study of Mus musculus with 32 samples.

Results

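The heat shock proteins described here are 10 of the 25067 genes with a count in the deposited table: the HSP70 genes Hspa1a, Hspa1b and Hspa8, the HSP110 gene Hsph1, the HSP40 gene Dnajb1, the HSP90 genes Hsp90aa1 and Hsp90ab1, the small heat shock protein gene Hspb1, and the mitochondrial chaperonin genes Hspd1 (HSP60) and Hspe1 (HSP10). They were chosen by name, and each gene was followed through its transcript with the highest mean count. RNA was sequenced from bone marrow-derived macrophages (BMDMs) of male C57Bl6/J mice aged 6 to 12 weeks, grown in medium conditioned by L929 cells. BMDM-WT came from wild-type littermates, and BMDM-Nur77-KO came from whole-body knockout mice of Nr4a1, the gene of the nuclear receptor Nur77, which the labels name "cre". The knockout was made by crossing CMV-driven Cre to a loxP-flanked Nr4a1 locus, after which Cre was bred out. Cells of each genotype received 100 ng/ml LPS, the bacterial ligand of Toll-like receptor 4, for 0, 1, 5 or 18 h, with 4 libraries in each of the 8 groups. How many animals the wells came from is not stated, so the p-values measure the spread between these libraries, which may be technical.

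Heat shock proteins are molecular chaperones. HSP70 proteins bind unfolded stretches of other proteins and release them in a cycle driven by ATP, J proteins such as DNAJB1 deliver the client and start the hydrolysis, and HSP110 proteins exchange the nucleotide. HSP90 takes over partly folded clients, among them kinases and receptors, while HSP60 and its lid HSP10 fold proteins inside mitochondria. Hspa1a and Hspa1b are the stress-inducible HSP70 genes and Hspa8 the constitutive one, and heat shock factors such as HSF1 activate the inducible genes through inverted repeats of GAA known as heat shock elements.

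Counts over all genes were 8742362 to 15780926 per library, with a median of 11847140. Levels are given as CPM, a gene's share of its library's counts, scaled with edgeR's TMM factors. As a check of the labels, Nr4a1 at 0 h stood at 19.6 ± 4.33 CPM (mean ± SD, n = 4) in the wild-type libraries against 5.23 ± 1.18 CPM in the knockout, and at 1 h it stood at 436 ± 60.2 against 190 ± 39.8 CPM. Whether the counted reads lie in the deleted exons was not tested. All 8 macrophage marker genes exceeded 1 CPM in each group, with a sum of 11039 to 18831 CPM. The neutrophil list summed to 17.8 to 51.9 CPM, and of the T cell list only Lck exceeded 1 CPM, at a mean of 28.9 CPM in BMDM-WT and 32.1 CPM in BMDM-Nur77-KO at 5 h. The dendritic cell list summed to 10.2 to 21.9 CPM at 5 h and to at most 5.36 CPM at the other times, at 5 h mostly Xcr1, which rose by 4.99 on the log2 scale at 5 h in BMDM-WT (edgeR adjusted p = 3.6e-15). The B cell gene Cd79b had a mean between 1.13 and 2.63 CPM in every group, and the fibroblast, erythroid and mast cell lists summed to at most 1.88 CPM. Replicate 1 of BMDM-Nur77-KO at 5 h stood apart, with a root mean square deviation of 0.547 from its group on the log2 scale against 0.156 to 0.388 in the other libraries. Levels at 5 h in the knockout list it first. For the heat shock protein genes tested, calls that change when it is left out are also given without it, as are some fold changes.

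RefSeq promoter windows of GRCm38.p6, from 250 bases before to 50 bases after the transcript start, matched 7 of the 10 genes. Hspa8, Hsp90aa1 and Hsp90ab1 had no entry. The windows were searched for GAANNTTC and TTCNNGAA, pairs of heat shock element units, and for the triples GAANNTTCNNGAA and TTCNNGAANNTTC, which contain both pairs. Each pair is its own reverse complement and the triples are reverse complements of each other, so both strands were covered. At least 1 pair was present in 7 of the 10 windows of these genes and in 15.1% of all 32851 windows, and a triple in 4 of the 10 and in 0.603% of all windows. The 4 with a triple are not independent, since both windows of Hsph1 overlap each other and a window of Hspd1 overlaps that of Hspe1. Of the 4 windows below, the first 2 are shown because they are nearly the same although the 2 transcripts parted after LPS. The third is shown because it overlaps a window of the neighbouring gene Hspd1. The fourth is 1 of the 2 windows of Hsph1, a gene called lower at 5 h in both genotypes. Capitals mark the matches.
Hspa1a promoter, chr17:34972107-34972406, minus strand: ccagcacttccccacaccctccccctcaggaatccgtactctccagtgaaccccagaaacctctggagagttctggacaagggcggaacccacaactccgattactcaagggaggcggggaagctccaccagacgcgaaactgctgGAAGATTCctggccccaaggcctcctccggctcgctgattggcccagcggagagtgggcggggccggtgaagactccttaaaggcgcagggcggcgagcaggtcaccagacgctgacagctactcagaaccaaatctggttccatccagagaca
Hspa1b promoter, chr17:34959189-34959488, minus strand: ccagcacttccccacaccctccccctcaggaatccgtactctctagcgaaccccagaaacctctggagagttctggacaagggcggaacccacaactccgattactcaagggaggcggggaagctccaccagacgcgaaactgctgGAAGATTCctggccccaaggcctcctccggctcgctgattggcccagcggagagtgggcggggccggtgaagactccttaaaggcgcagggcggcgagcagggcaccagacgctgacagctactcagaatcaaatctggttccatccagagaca
Hspe1 promoter, chr1:55087898-55088197, plus strand: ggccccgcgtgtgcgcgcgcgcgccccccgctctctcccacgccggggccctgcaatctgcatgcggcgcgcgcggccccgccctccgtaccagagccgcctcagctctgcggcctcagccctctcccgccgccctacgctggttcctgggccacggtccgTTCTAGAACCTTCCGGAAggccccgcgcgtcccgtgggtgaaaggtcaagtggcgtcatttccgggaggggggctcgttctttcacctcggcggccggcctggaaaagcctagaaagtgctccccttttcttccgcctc
Hsph1 promoter, chr5:149636287-149636586, minus strand: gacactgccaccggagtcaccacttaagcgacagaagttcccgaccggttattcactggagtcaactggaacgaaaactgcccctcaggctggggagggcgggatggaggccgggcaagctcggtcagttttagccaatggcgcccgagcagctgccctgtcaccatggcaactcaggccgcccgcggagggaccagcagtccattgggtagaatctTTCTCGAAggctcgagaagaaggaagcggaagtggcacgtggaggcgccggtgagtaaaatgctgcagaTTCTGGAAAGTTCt

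The Hspa1a and Hspa1b windows were identical at 296 of 300 positions. Counted from 1 at the 5′ end, with the Hspa1a base first, the substitutions were C44T, T47C, T249G and C276T, all outside the single GAANNTTC match, which began at -104 in both. The Hspe1 window held both triples in 1 run of 18 bases that began at -89. The same run lies on the other strand of a window of Hspd1, chr1:55087883-55088182, where it began at -144, since the 2 genes lie head to head. The other window of Hspd1, chr1:55088194-55088493, held no match. In the Hsph1 window shown, a pair began at -33 and a triple at +37, after the start. In the other Hsph1 window they began at -54 and +16. In Hspb1, GAANNTTC began at -117 and at -97, and neither window of Dnajb1 held a match. A match is a description of the letters and no evidence that a factor bound there.

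The 2 inducible HSP70 genes rose in 2 phases. Hspa1a (NM_010479, chromosome 17, 34969359 to 34972156) was low before LPS, with 1.52, 1.35, 1.51 and 1.23 CPM in the BMDM-WT libraries, or 17 to 26 counts. At 1 h it reached 11.1, 12.8, 8.41 and 10.9 CPM, at 5 h it was back at 2.50, 2.93, 2.21 and 2.12 CPM, and at 18 h it stood at 16.8, 20.8, 19.9 and 21.2 CPM. None of these groups overlapped. The log2 fold change against 0 h was 2.94 at 1 h (SE 0.16, edgeR adjusted p = 8.6e-16), 0.80 at 5 h (SE 0.20, edgeR adjusted p = 0.00086) and 3.81 at 18 h (SE 0.15, edgeR adjusted p = 1.3e-19). From 1 h to 5 h it fell by 2.14 (edgeR adjusted p = 3.8e-13), and from 5 h to 18 h it rose by 3.01 (edgeR adjusted p = 7.2e-17).

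BMDM-Nur77-KO followed the same course at Hspa1a. Its libraries held 2.00, 1.26, 1.38 and 1.98 CPM at 0 h, 13.7, 13.4, 12.7 and 13.2 CPM at 1 h, and 2.94, 3.35, 4.40 and 2.84 CPM at 5 h. At 18 h they held 37.2, 40.7, 46.7 and 37.4 CPM, all above the BMDM-WT libraries. Against 0 h, the log2 fold changes at 1, 5 and 18 h were 3.01, 1.05 and 4.63 (edgeR adjusted p = 3.7e-16, 8.1e-06 and 4.0e-22), and without the replicate that stood apart the 5 h value was 1.11 (edgeR adjusted p = 1.3e-05).

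Hspa1b (NM_010478, chromosome 17, 34956429 to 34959238), which encodes nearly the same protein, started as low as its neighbour. The BMDM-WT libraries held 1.98, 1.60, 1.51 and 1.81 CPM at 0 h and 13.2, 12.0, 9.74 and 12.9 CPM at 1 h. Unlike Hspa1a, it kept most of its level at 5 h, with 11.6, 8.55, 8.19 and 8.85 CPM, and it reached 18.4, 19.8, 18.4 and 19.6 CPM at 18 h. Relative to 0 h, its log2 fold changes at 1, 5 and 18 h were 2.79, 2.43 and 3.46 (SE 0.19, 0.20 and 0.18, edgeR adjusted p = 2.4e-13, 2.7e-12 and 1.2e-16). The step from 1 h to 5 h was -0.36 and did not pass the threshold (edgeR adjusted p = 0.051), although it did without BMDM-WT 1 h replicate 3 (-0.45, edgeR adjusted p = 0.022) or BMDM-WT 5 h replicate 1 (-0.48, edgeR adjusted p = 0.016).

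In BMDM-Nur77-KO, Hspa1b held 3.45, 1.51, 3.44 and 3.33 CPM at 0 h, 18.4, 17.4, 15.1 and 20.4 CPM at 1 h, 11.8, 17.1, 17.0 and 19.4 CPM at 5 h and 43.3, 44.8, 47.4 and 41.6 CPM at 18 h. The 1 h and 5 h libraries overlapped. The log2 fold changes against 0 h were 2.63, 2.50 and 3.94 at 1, 5 and 18 h (edgeR adjusted p = 1.7e-13, 9.2e-14 and 5.8e-19). Without replicate 1 the 5 h value of Hspa1b was 2.63 (edgeR adjusted p = 3.6e-15). Its step from 1 h to 5 h was -0.13 and not called (edgeR adjusted p = 0.45), and -0.002 without replicate 1 (edgeR adjusted p = 0.99). With library totals this step was called in both genotypes, at -0.84 in BMDM-WT and -0.63 in BMDM-Nur77-KO (edgeR adjusted p = 6.7e-05 and 0.00066).

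**Figure D1:**
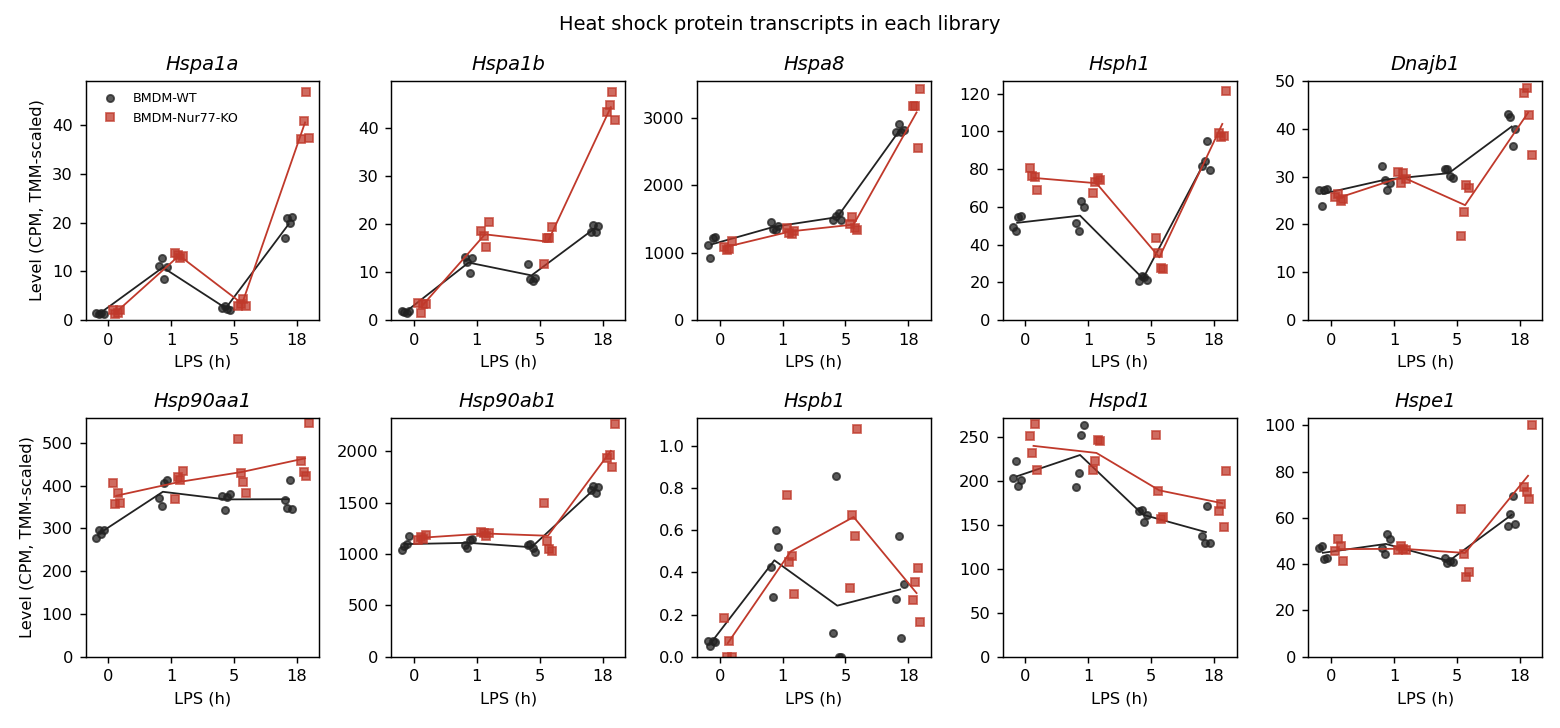
Level of each heat shock protein transcript (CPM after TMM scaling, linear axes from 0) in the 32 libraries by hours of LPS; circles are BMDM-WT, squares BMDM-Nur77-KO, and lines join the group means. Hspa1a and Hspa1b peak at 18 h, where all BMDM-Nur77-KO libraries lie above all BMDM-WT libraries, and Hsph1 dips at 5 h in both genotypes.

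The different course of the 2 genes was examined as the ratio of their counts within each library, a measure that no scaling of libraries can move and that was chosen after seeing the data. The ratio of Hspa1a to Hspa1b in BMDM-WT was 0.822 ± 0.135 (SD, n = 4) at 0 h and 0.903 ± 0.108 at 1 h. It fell to 0.267 ± 0.0552 at 5 h and stood at 1.03 ± 0.0786 at 18 h. The corresponding ratios in BMDM-Nur77-KO were 0.602 ± 0.178, 0.749 ± 0.0805, 0.213 ± 0.0521 and 0.913 ± 0.0527. All 8 libraries at 5 h lay at or under 0.343, and the other 24 at or above 0.400. The fall from 1 h to 5 h was 3.41-fold in BMDM-WT and 3.59-fold in BMDM-Nur77-KO, and the rise from 5 h to 18 h was 3.91-fold and 4.39-fold. Each of these 4 steps had an exact two-sided permutation p of 0.0286, the smallest that 4 libraries against 4 can give, and a Benjamini-Hochberg adjusted p of 0.0416 over the 16 comparisons of ratios. With the other 3 BMDM-Nur77-KO libraries at 5 h, whose ratios were 0.196, 0.258 and 0.146, the fall was 3.82-fold and the rise 4.67-fold, each with an exact permutation p of 0.0571, the smallest that 3 against 4 can give. The change from 0 h to 1 h was not separable in either genotype (exact permutation p = 0.343 in BMDM-WT and 0.171 in BMDM-Nur77-KO). From 0 h to 18 h the ratio rose 1.57-fold in BMDM-Nur77-KO (exact permutation p = 0.0286, Benjamini-Hochberg adjusted p = 0.0416). In BMDM-WT it rose 1.26-fold (exact permutation p = 0.0571, Benjamini-Hochberg adjusted p = 0.0762).

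Part of each transcript cannot be assigned by sequence. Of the windows of 150 bases, the length of 1 read, along the annotated transcript, 39.7% of those of Hspa1a and 40.5% of those of Hspa1b also occur unchanged in a transcript of another gene, mostly in each other. The authors kept alignments by mapping quality, and how reads from these stretches were divided between the genes is uncertain. The same share was 55.4% for Hspa8, 53.4% for Hspb1, 36.2% for Hsp90aa1, 18.6% for Hspd1 and 14.1% for Hspe1, with pseudogenes among the sources, and 0 for Hsph1, Dnajb1 and Hsp90ab1. The value of Hspd1 was computed on its other transcript, NM_010477 with 2423 bases, and not on NM_001356512, whose counts are used here.

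**Figure D2:**
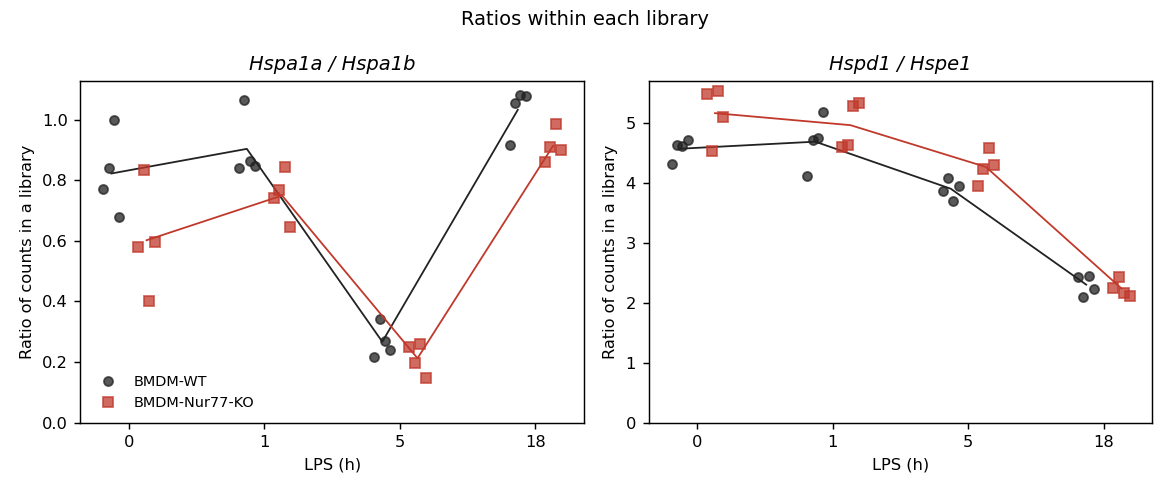
Ratio of counts of 2 genes within each library by hours of LPS (linear axes from 0; circles BMDM-WT, squares BMDM-Nur77-KO, lines through the group means). On the left the 8 libraries at 5 h lie at or under 0.343, below all the others, and on the right the ratio of Hspd1 to Hspe1 is lowest at 18 h.

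Hspa8, the constitutive HSP70, is by far the more abundant of the family. Per kilobase of transcript it stood at 469 ± 59.3 RPKM (SD, n = 4) in BMDM-WT at 0 h, against 0.473 ± 0.047 RPKM for Hspa1a and 0.616 ± 0.075 RPKM for Hspa1b, and at 18 h of LPS in BMDM-Nur77-KO it stood at 1288 RPKM against 13.7 and 15.8 RPKM. In BMDM-WT, Hspa8 (NM_031165, chromosome 9, 40801276 to 40805202) held 1116, 926, 1224 and 1229 CPM at 0 h, 1458, 1356, 1332 and 1403 CPM at 1 h, 1486, 1551, 1585 and 1493 CPM at 5 h and 2801, 2907, 2792 and 2824 CPM at 18 h. These are log2 fold changes of 0.30, 0.44 and 1.33 for the 3 treated times (edgeR adjusted p = 0.0054, 1.1e-05 and 2.5e-15). BMDM-Nur77-KO reached 3174, 3175, 2563 and 3425 CPM at 18 h from 1084, 1047, 1063 and 1175 CPM at 0 h, a log2 fold change of 1.50 (edgeR adjusted p = 1.2e-16). The changes at 1 h and 5 h in BMDM-Nur77-KO were 0.27 and 0.38 (edgeR adjusted p = 0.019 and 0.00010). The 5 h value was also 0.38 without replicate 1 (edgeR adjusted p = 0.00019), and the call at 1 h ended without BMDM-Nur77-KO 0 h replicate 2 or 3 or 1 h replicate 1 (edgeR adjusted p = 0.065, 0.058 and 0.064). With library totals the 1 h change was 0.16 in both genotypes and not called (edgeR adjusted p = 0.093 in BMDM-WT and 0.13 in BMDM-Nur77-KO). With libraries scaled to their totals alone, the 5 h change was -0.19 in BMDM-WT and -0.25 in BMDM-Nur77-KO, in the opposite direction.

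Hsph1 (NM_013559, chromosome 5, 149616843 to 149636498) fell before it rose. The BMDM-WT libraries held 49.2, 47.3, 54.5 and 55.1 CPM at 0 h and 51.3, 47.2, 63.0 and 59.7 CPM at 1 h. At 5 h they were down to 20.7, 23.6, 22.6 and 21.1 CPM, and at 18 h they reached 81.6, 84.2, 94.7 and 79.8 CPM. In BMDM-Nur77-KO the libraries held 80.5, 76.2, 75.5 and 69.0 CPM at 0 h, 67.1, 73.2, 75.1 and 74.5 CPM at 1 h, 43.3, 35.3, 27.4 and 27.0 CPM at 5 h and 99.2, 97.1, 97.7 and 122 CPM at 18 h. The log2 fold change at 5 h was -1.23 in BMDM-WT and -1.18 in BMDM-Nur77-KO (edgeR adjusted p = 1.2e-10 and 1.3e-10), and at 18 h it was 0.72 and 0.46 (edgeR adjusted p = 1.1e-06 and 0.00041). Without BMDM-Nur77-KO 5 h replicate 1, whose Hsph1 level was the highest of its group, the knockout value at 5 h was -1.33 (edgeR adjusted p = 1.3e-12). No change was called at 1 h, where the values were 0.10 and -0.05. With library totals the 18 h change in BMDM-Nur77-KO was 0.01 (edgeR adjusted p = 0.90).

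Dnajb1 (NM_018808, chromosome 8, 83608175 to 83612653) was nearly flat until 18 h in BMDM-WT with TMM scaling. In BMDM-WT it held 27.2, 23.9, 27.2 and 27.4 CPM at 0 h, between 27.2 and 32.3 CPM at 1 h, between 29.7 and 31.6 CPM at 5 h, and 43.1, 42.4, 36.5 and 40.0 CPM at 18 h. Its log2 fold change at 18 h was 0.62 in BMDM-WT and 0.76 in BMDM-Nur77-KO (edgeR adjusted p = 6.1e-06 and 1.8e-07), and the BMDM-WT value was 0.25 with library totals (edgeR adjusted p = 0.071). The changes at 5 h, 0.22 and -0.09, did not pass the threshold (edgeR adjusted p = 0.068 and 0.46). In BMDM-WT this value passed with DESeq2's size factors, at 0.31 (edgeR adjusted p = 0.010), and with library totals it was called in the other direction, at -0.41. In BMDM-Nur77-KO library totals gave -0.70 at 5 h (edgeR adjusted p = 1.1e-05). The BMDM-Nur77-KO libraries held 17.6, 22.6, 28.3 and 27.6 CPM at 5 h, a log2 fold change of -0.31 from 1 h (edgeR adjusted p = 0.010). Without replicate 1 this step was -0.20 and not called (edgeR adjusted p = 0.070), and the change at 5 h against 0 h was 0.03 (edgeR adjusted p = 0.81).

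The HSP90 genes changed little in comparison. Hsp90ab1 (NM_008302, chromosome 17, 45567778 to 45573261), the constitutive form, stood at 435 ± 21.8 RPKM in BMDM-WT at 0 h, close to Hspa8 on this scale. It held 1039, 1080, 1095 and 1170 CPM at 0 h, 1061 to 1145 CPM at 1 h, 1016 to 1096 CPM at 5 h, and 1627, 1661, 1591 and 1649 CPM at 18 h. The rise at 18 h was 0.57 in BMDM-WT and 0.79 in BMDM-Nur77-KO on the log2 scale (edgeR adjusted p = 2.6e-07 and 4.7e-10), while the changes at 1 h and 5 h lay between -0.04 and 0.05 and were not called. Without BMDM-Nur77-KO 5 h replicate 1, the knockout value at 5 h was -0.11 and not called (edgeR adjusted p = 0.096). Library totals gave -0.67 in BMDM-WT and -0.62 in BMDM-Nur77-KO at 5 h, both called.

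Hsp90aa1 (NM_010480, chromosome 12, 110691036 to 110696395), the inducible form, stood at 88.2 ± 2.99 RPKM in BMDM-WT at 0 h. It held 276, 296, 287 and 297 CPM at 0 h, 370, 353, 406 and 413 CPM at 1 h, 375, 342, 374 and 380 CPM at 5 h, and 367, 348, 413 and 345 CPM at 18 h. The 0 h libraries lay below all the treated ones, and the 3 treated groups overlapped. The log2 fold changes against 0 h were 0.41, 0.35 and 0.35 (edgeR adjusted p = 0.00056, 0.00076 and 0.00079). In BMDM-Nur77-KO, which started at 357 to 407 CPM, the corresponding values were 0.12, 0.20 and 0.30 (edgeR adjusted p = 0.55, 0.041 and 0.0028), and the 5 h value was 0.11 without the replicate that stood apart (edgeR adjusted p = 0.23). This call also ended without 0 h replicate 2, 3 or 4 or 5 h replicate 2 (edgeR adjusted p from 0.055 to 0.10). With library totals, the values at 5 h were -0.29 in BMDM-WT and -0.43 in BMDM-Nur77-KO, and those at 18 h were -0.02 and -0.15.

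The mitochondrial chaperonin genes parted from each other. Hspd1 (NM_001356512, chromosome 1, 55077833 to 55088243) held 203, 222, 194 and 200 CPM in BMDM-WT at 0 h, 192 to 263 CPM at 1 h, 165, 166, 153 and 161 CPM at 5 h, and 138, 129, 171 and 129 CPM at 18 h. It was lower than at 0 h by 0.35 on the log2 scale at 5 h and lower by 0.53 at 18 h, where it was the only one of the 9 tested genes with a fall, and all libraries lay below those of 0 h. The edgeR adjusted p was 0.017 at 5 h and 0.00049 at 18 h in BMDM-WT. In BMDM-Nur77-KO the log2 fold changes were -0.34 and -0.46 (edgeR adjusted p = 0.017 and 0.0020). The call at 5 h was lost in both genotypes with DESeq2's size factors (edgeR adjusted p = 0.080 in each). It also ended in BMDM-WT without BMDM-WT 0 h replicate 2 (edgeR adjusted p = 0.051), and in BMDM-Nur77-KO without 0 h replicate 3, 5 h replicate 3 or 5 h replicate 4 (edgeR adjusted p = 0.060, 0.077 and 0.073). Without 5 h replicate 1 the BMDM-Nur77-KO value was -0.51 (edgeR adjusted p = 0.00023).

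Hspe1 (NM_008303, chromosome 1, 55088148 to 55091317) moved the other way at 18 h with TMM scaling. At 5 h its log2 fold changes were -0.12 in BMDM-WT and -0.05 in BMDM-Nur77-KO, neither called (edgeR adjusted p = 0.43 and 0.72). Without BMDM-Nur77-KO 5 h replicate 1, the knockout value of Hspe1 at 5 h was -0.27 and called (edgeR adjusted p = 0.028). Its BMDM-WT libraries held 47.0, 48.0, 42.1 and 42.5 CPM at 0 h, 40.7 to 42.6 CPM at 5 h and 56.6, 61.5, 69.6 and 57.5 CPM at 18 h. The log2 fold change at 18 h was 0.45 in BMDM-WT and 0.75 in BMDM-Nur77-KO (edgeR adjusted p = 0.0031 and 6.9e-06), and the BMDM-WT value was 0.08 with library totals (edgeR adjusted p = 0.53). The ratio of Hspd1 to Hspe1 counts within a library fell from 4.57 ± 0.173 (SD, n = 4) at 0 h to 3.90 ± 0.159 at 5 h and 2.30 ± 0.171 at 18 h in BMDM-WT. BMDM-Nur77-KO went from 5.16 ± 0.461 to 4.27 ± 0.259 and 2.24 ± 0.141, and its 5 h ratio was 4.37 ± 0.179 over the 3 libraries other than replicate 1. From 0 h to 18 h the fall was 1.99-fold and 2.30-fold, each with an exact two-sided permutation p of 0.0286 and an adjusted p of 0.0416 over the 16 comparisons. The annotated ends of the 2 genes overlap, and the methods do not say whether tags were counted by strand.

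Hspb1 (NM_013560, chromosome 5, 135887919 to 135889563), the small heat shock protein, was barely detected. It had 1 count in each BMDM-WT library at 0 h and 0 to 2 counts in BMDM-Nur77-KO, 4 to 9 counts at 1 h in either genotype, and at most 11 counts in any library. Its level did not reach 1 RPKM in the mean of any group, so the filter on low values kept it out of the test of the other 9. In a fit with no filter, its log2 fold change at 1 h was 2.58 in BMDM-WT and 2.90 in BMDM-Nur77-KO (edgeR adjusted p = 0.015 and 0.012), and at 5 h in BMDM-Nur77-KO it was 3.33 (edgeR adjusted p = 0.00028). The values at 18 h were 2.06 and 2.23 (edgeR adjusted p = 0.035 and 0.028), and the 5 h value in BMDM-WT was 1.65 and not called (edgeR adjusted p = 0.14). Each rests on 0 h groups with 0 to 2 counts per library, so the size of the fitted change depends on the prior count and is not a bound.

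**Figure D3:**
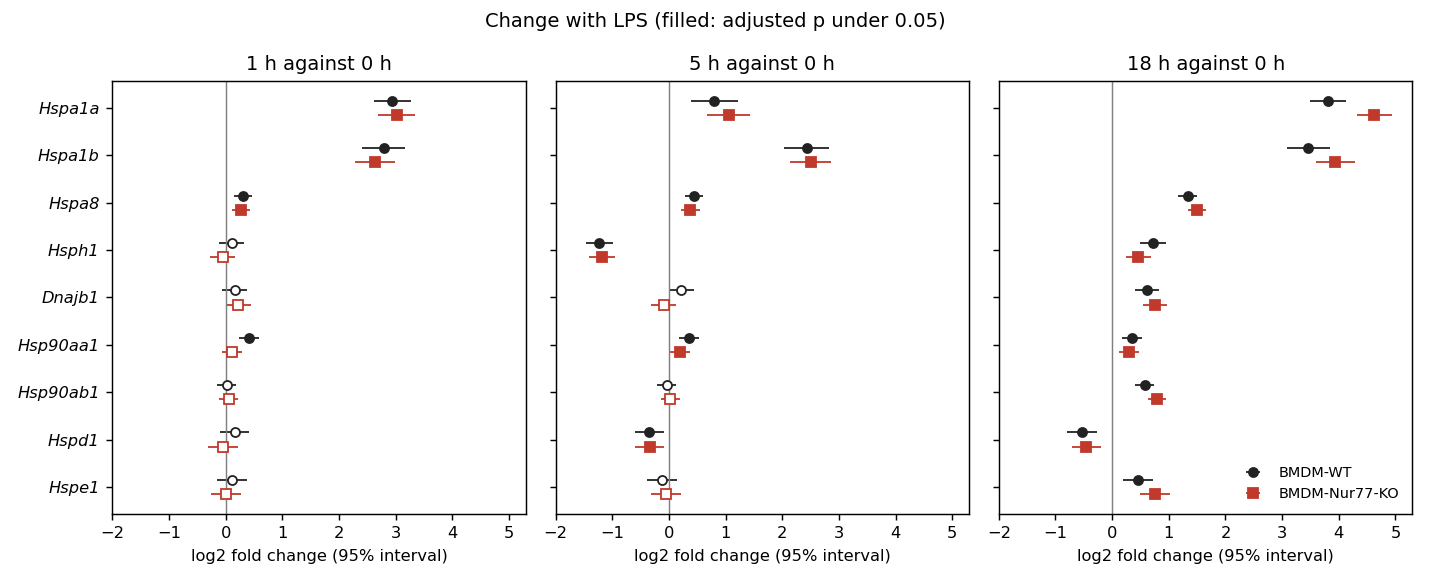
log2 fold change against 0 h, with 95% intervals, of the 9 tested heat shock protein genes after 1, 5 and 18 h of LPS; circles are BMDM-WT, squares BMDM-Nur77-KO, and filled symbols have an edgeR adjusted p under 0.05. Hspa1a and Hspa1b lie between 2.63 and 3.01 at 1 h, Hsph1 is near -1.2 at 5 h, and Hspd1 alone is below 0 at 18 h with TMM scaling.

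Counted together, 4 of the 9 tested genes were called at 1 h in BMDM-WT, all higher, where 20.3% of all 11279 tested genes were called and 10.2% were higher. At 5 h it was 6 (Hspa1a, Hspa1b, Hspa8 and Hsp90aa1 higher, Hsph1 and Hspd1 lower), against 70.0% of all genes, 30.0% higher and 40.1% lower. At 18 h all 9 were called against 66.3%, and the 8 that rose compare with 32.3% of all genes called higher and 33.9% called lower. Their median log2 fold change at 18 h was 0.62, and that of all tested genes was -0.01. In BMDM-Nur77-KO the count was 3 at 1 h, all higher, where 12.2% of all genes were called and 6.86% were higher. It was 6 at 5 h, with 4 higher and 2 lower, where 71.3% of all genes were called, 32.2% higher and 39.1% lower. At 18 h it was 9, with 8 higher and 1 lower, where 69.2% were called, 33.7% higher and 35.5% lower. Between 1 h and 5 h, 3 of the 9 fell in BMDM-WT and 4 in BMDM-Nur77-KO, where 64.8% and 70.7% of all genes were called and 36.0% and 38.2% fell. Between 5 h and 18 h 7 of the 9 rose in each genotype, where 69.1% and 68.8% of all genes were called and 35.9% and 34.9% rose. Without BMDM-Nur77-KO 5 h replicate 1, the knockout count was still 6 at 5 h against 0 h, with Hsp90aa1 no longer called and Hspe1 called at -0.27 (edgeR adjusted p = 0.028). In the step from 1 h to 5 h, Dnajb1 was then at -0.20 (edgeR adjusted p = 0.070) and Hspe1 and Hsp90ab1 were called at -0.27 and -0.16, and in the step to 18 h Hsp90aa1 was called at 0.19 (edgeR adjusted p = 0.026, 0.018 and 0.043). The fall of Hspd1 from 1 h to 5 h in BMDM-Nur77-KO (-0.29, edgeR adjusted p = 0.040) was lost without 1 h replicate 3 or 4 or 5 h replicate 2, 3 or 4 (edgeR adjusted p from 0.067 to 0.15). With library totals in place of TMM, the counts turned toward falls at 5 h, with 1 of the 9 higher (Hspa1b) and 7 lower in BMDM-WT, while the knockout had 2 higher (Hspa1a and Hspa1b) and 7 lower. At 18 h this scaling gave 5 higher and 1 lower in BMDM-WT, where Dnajb1, Hsp90aa1 and Hspe1 were no longer called, and for the knockout 6 higher and 1 lower, where Hsph1 and Hsp90aa1 were not. Under this scaling all 9 fell from 1 h to 5 h in each genotype, and 8 rose from 5 h to 18 h. The share of all genes called with library totals was not counted. The median log2 fold change of all genes was then -0.78 in BMDM-WT and -0.74 in BMDM-Nur77-KO at 5 h, and -0.37 and -0.47 at 18 h. It was -0.56 and -0.62 from 1 h to 5 h, and 0.30 and 0.19 from 5 h to 18 h. The comparisons of 1 genotype share its libraries and are not independent of each other.

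The scale of the libraries matters at 5 h. Scaling to library totals in place of TMM moved the median log2 fold change of all tested genes by -0.63 in BMDM-WT and -0.62 in BMDM-Nur77-KO at 5 h, by -0.37 and -0.45 at 18 h and by -0.15 and -0.11 at 1 h. From 1 h to 5 h the shift was -0.49 and -0.52, and from 5 h to 18 h it was 0.27 and 0.18. Under both scalings, Hspa1b was called higher and Hsph1 lower at 5 h in each genotype, whereas the Hspa1a rise at 5 h in BMDM-WT was 0.17 with totals (edgeR adjusted p = 0.48). DESeq2's size factors moved the medians by less than 0.1.

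**Figure D4:**
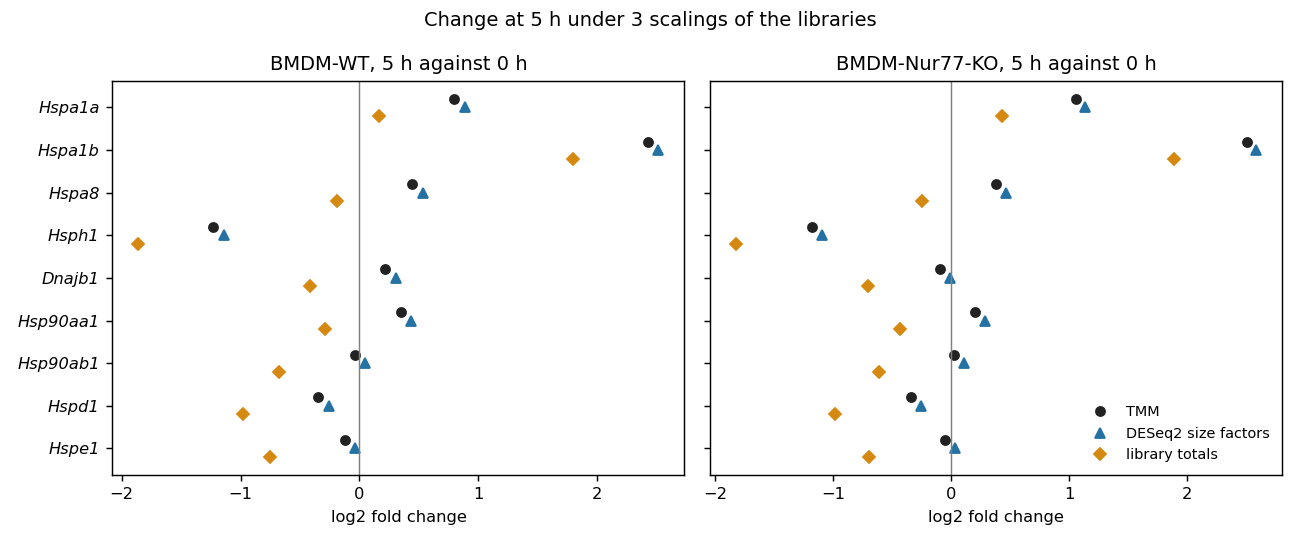
log2 fold change at 5 h against 0 h of the 9 tested heat shock protein genes in BMDM-WT (left) and BMDM-Nur77-KO (right) under 3 scalings: TMM (circles), DESeq2's size factors (triangles) and library totals (diamonds). Hspa1b stays right of 0 and Hsph1 left of 0 under all 3, while Hspa8 and Hsp90aa1 lie right of 0 with TMM and left of it with library totals.

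Comparing the genotypes at each time asks whether loss of Nur77 altered these transcripts. At 18 h, 4 of the 9 were called, all higher in BMDM-Nur77-KO, where 21.5% of all genes were called and 11.7% were higher. Hspa1b had the highest value, a log2 fold change of 1.22 (SE 0.14, edgeR adjusted p = 8.6e-08) or 2.33-fold, and Hspa1a followed with 1.04 (SE 0.12, edgeR adjusted p = 3.7e-08) or 2.06-fold. For both, each of the 4 BMDM-Nur77-KO libraries exceeded each BMDM-WT library. The nearest were 37.2 and 21.2 CPM for Hspa1a and 41.6 and 19.8 CPM for Hspa1b. The groups were separated this way for 5 of the 9 and for 10.8% of all genes, with Hsph1, Hsp90aa1 and Hsp90ab1 the others. Hsp90aa1 was higher by 0.33 and Hsp90ab1 higher by 0.29 (edgeR adjusted p = 0.0050 and 0.0076). The other 5 ranged from 0.10 for Dnajb1 to 0.35 for Hspe1 and were not called, with an edgeR adjusted p of 0.059 for Hsph1, 0.050 for Hspe1 and 0.093 for Hspd1. These 3 were called when BMDM-WT 18 h replicate 3 was left out, which brought the count to 7. Hspe1 was also called without BMDM-Nur77-KO 18 h replicate 2 or 3, and Hspd1 without BMDM-Nur77-KO 18 h replicate 3. With DESeq2's size factors Hspe1 was called at 0.37 (edgeR adjusted p = 0.045). DESeq2's own test called 6 of the 9 at 18 h, and its share of all genes was not counted. The interval of the Hspa8 difference ran from -0.04 to 0.29. The sum of the macrophage markers at 18 h was 11039 to 12653 CPM in BMDM-Nur77-KO and 14022 to 14672 CPM in BMDM-WT, with 4 of the 8 called lower and 1 higher, and its part in these differences was not tested. In bulk RNA, fewer cells of a type and less RNA per cell cannot be told apart.

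Before LPS, 3 of the 9 were higher in BMDM-Nur77-KO (12.7% of all genes called, 6.29% higher): Hspa1b by 0.74, Hsph1 by 0.55 and Hsp90aa1 by 0.38 (edgeR adjusted p = 0.024, 0.00096 and 0.0032). For Hsph1 and Hsp90aa1 the groups did not overlap, 2 of the 9 against 10.1% of all genes in this direction. Hspa1b rested on 20 to 31 counts per library in BMDM-WT and 24 to 45 in BMDM-Nur77-KO, its groups overlapped through BMDM-Nur77-KO replicate 2, and its call ended without BMDM-Nur77-KO replicate 1, 3 or 4 or BMDM-WT replicate 2 or 3 (edgeR adjusted p = 0.060 to 0.10). Of the 5 tested neutrophil markers 2 were also called higher before LPS, with sums of 27.0 to 35.1 CPM in BMDM-Nur77-KO and 17.8 to 30.2 CPM in BMDM-WT, and 2 of the 8 macrophage markers and Cd79b were called lower, with their part not tested.

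At 1 h, Hspa1b was higher by 0.58 and Hsph1 higher by 0.39 in BMDM-Nur77-KO (edgeR adjusted p = 0.013 and 0.027), 2 of 9 against 6.51% of all genes called and 3.47% higher. Leaving out 1 library brought the count to between 0 and 2. The Hsph1 call ended without BMDM-Nur77-KO 1 h replicate 2, 3 or 4 or BMDM-WT 1 h replicate 1 or 2 (edgeR adjusted p from 0.070 to 0.13), and the Hspa1b call without BMDM-Nur77-KO 1 h replicate 4 or BMDM-WT 1 h replicate 3 (edgeR adjusted p = 0.064 and 0.070). The sum of the neutrophil markers at 1 h was 43.2 to 51.9 CPM in BMDM-Nur77-KO and 28.1 to 37.6 CPM in BMDM-WT, without overlap, and 2 of the 5 tested markers of the 8 were called higher. Its part in these differences was not tested.

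At 5 h, 4 of 9 were called against 24.2% of all genes (13.5% higher, 10.7% lower): Hspa1b, Hsph1 and Hsp90aa1 higher, by 0.81, 0.60 and 0.23, and Dnajb1 lower, at -0.35 (edgeR adjusted p = 0.00054, 0.00074, 0.050 and 0.020). Without BMDM-Nur77-KO replicate 1, the calls of Dnajb1 (-0.23, edgeR adjusted p = 0.12) and Hsp90aa1 (0.14, edgeR adjusted p = 0.28) ended and 2 remained in number, as they did without replicate 2. Hspa1b and Hsph1 were at 0.94 and 0.45 without replicate 1 (edgeR adjusted p = 4.2e-05 and 0.0061). Hsp90aa1 was also not called without any 1 of the 4 BMDM-WT libraries (edgeR adjusted p from 0.062 to 0.14). Hspa1a was higher by 0.48 at 5 h without passing the threshold (edgeR adjusted p = 0.059), and it passed without BMDM-Nur77-KO replicate 4 (0.55, edgeR adjusted p = 0.031). With DESeq2's size factors it also passed (0.50, edgeR adjusted p = 0.047). The macrophage markers summed to 13265 to 16098 CPM in BMDM-Nur77-KO and 16539 to 17970 CPM in BMDM-WT at 5 h, without overlap, with 3 of the 8 called lower and 1 higher, and their part in these differences was not tested.

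**Figure D5:**
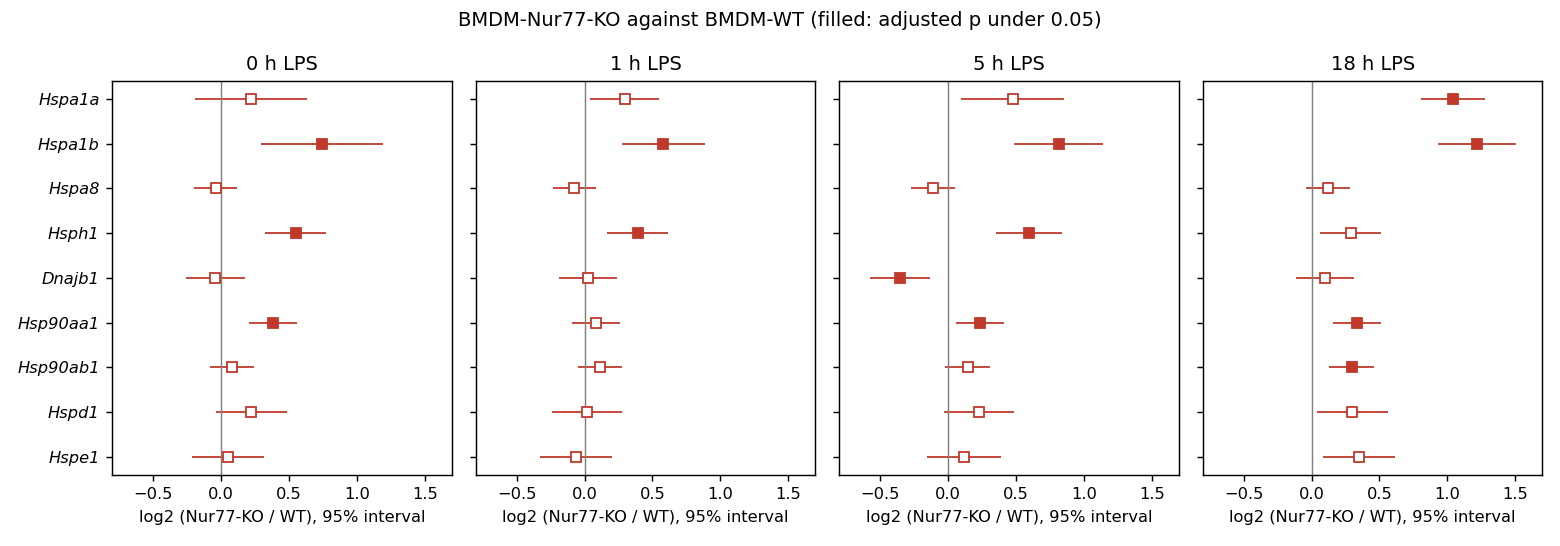
log2 ratio of BMDM-Nur77-KO to BMDM-WT, with 95% intervals, for the 9 tested heat shock protein genes at 0, 1, 5 and 18 h of LPS; filled squares have an edgeR adjusted p under 0.05. Hspa1b is filled at all 4 times, and at 18 h Hspa1a and Hspa1b stand at 1.04 and 1.22, apart from the other genes.

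Whether the response to LPS itself differed between the genotypes was tested as an interaction relative to 0 h. Hspa1a at 18 h passed, with a log2 difference of 0.82 (SE 0.23, edgeR adjusted p = 0.020), where 9.40% of all genes passed and 5.36% were higher. It no longer did without BMDM-Nur77-KO 0 h replicate 2 (0.70, edgeR adjusted p = 0.073) or replicate 3 (0.75, edgeR adjusted p = 0.058). Hspa1b, already higher before LPS, had an interaction of 0.48 at 18 h, with an interval from -0.06 to 1.02. At 1 h and 5 h, edgeR called 0 of the 9 (0.0709% and 3.10% of all genes), DESeq2 also called 0, and 1 gene had an unadjusted p under 0.05 at each time, Hsp90aa1 at 1 h (-0.30) and Dnajb1 at 5 h (-0.31).

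Ranked by group means, Hspa1a ran from BMDM-Nur77-KO at 18 h (40.5 CPM) through BMDM-WT at 18 h (19.7 CPM), BMDM-Nur77-KO and BMDM-WT at 1 h (13.2 and 10.8 CPM, overlapping) and both genotypes at 5 h (3.38 and 2.44 CPM, overlapping) to 0 h (1.65 and 1.40 CPM, overlapping). For Hspa1b, BMDM-Nur77-KO at 18 h (44.3 CPM) was clear of the rest, and BMDM-WT at 18 h (19.0 CPM) came next. BMDM-Nur77-KO at 1 h and 5 h (17.8 and 16.3 CPM) and BMDM-WT at 1 h and 5 h (12.0 and 9.29 CPM) followed. From BMDM-WT at 18 h to BMDM-WT at 5 h, every neighbour overlapped. Hspa8 and Dnajb1 had both 18 h groups on top, overlapping each other and clear of the next. Hsph1 had its lowest levels at 5 h (33.3 CPM in BMDM-Nur77-KO and 22.0 CPM in BMDM-WT, without overlap). Hsp90aa1 ran from 464 CPM in BMDM-Nur77-KO at 18 h to 289 CPM in BMDM-WT at 0 h, and only this last group was clear of its neighbour. For Hsp90ab1 the 2 groups at 18 h (2002 and 1632 CPM) were clear of each other and of the rest, which lay between 1065 and 1199 CPM with all neighbours overlapping. Hspe1 was highest in the 2 groups at 18 h (78.2 and 61.3 CPM), which overlapped, and Hspd1 ran from 239 CPM in BMDM-Nur77-KO at 0 h to 141 CPM in BMDM-WT at 18 h with every neighbour overlapping.

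The other chaperone genes are given by list, for comparison with the shares of all genes called under TMM. These were 30.0% higher and 40.1% lower for BMDM-WT at 5 h and 32.3% higher and 33.9% lower at 18 h. Between genotypes at 18 h they were 11.7% higher and 9.80% lower. The shares under library totals were not counted, and the median log2 fold change of all genes was then -0.78, -0.37 and -0.12 in this order. With library totals, fewer rises were counted at 5 h in BMDM-WT: 1 rise and 13 falls for the HSP70 relatives, 4 and 8 for the J proteins, 1 and 7 for the HSP90 cochaperones, 0 and 7 for the mitochondrial partners and 0 and 10 for CCT and prefoldin. At 18 h the same scaling gave 3 rises and 10 falls, 5 and 8, 1 and 7, 0 and 5, and 0 and 12 in this order, and between genotypes at 18 h it gave 1 higher and 1 lower, 5 and 1, 1 and 1, 0 and 1, and 0 and 0.

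Of 16 tested HSP70 relatives and exchange factors, 5 were higher and 6 lower at 18 h in BMDM-WT, with a median log2 fold change of -0.17 against -0.01 for all genes. Hspa1l, which lies beside Hspa1a, rose by 2.27 and Hspa4l, an HSP110 relative, by 1.59, whereas the cochaperones Bag2 and Hspbp1 fell by 1.78 and 1.15 (edgeR adjusted p = 4.4e-10, 1.1e-11, 7.7e-08 and 3.2e-05). At 5 h in BMDM-WT, 4 of the 16 were higher and 7 lower. Hspa4l and Hspa2 rose by 1.23 and 0.72, and Bag4 and Bag2 fell by 1.67 and 1.45 (edgeR adjusted p = 3.1e-09, 0.00043, 3.1e-13 and 3.1e-06). The value of Hspa2 was 0.09 with library totals (edgeR adjusted p = 0.61). Against BMDM-WT at 18 h, 3 of the 16 were higher in BMDM-Nur77-KO, led by Hspa4l at 1.17 and St13 at 0.40 (edgeR adjusted p = 3.5e-08 and 0.034), of which St13 was not called with library totals (0.29, edgeR adjusted p = 0.057).

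Of 14 tested J proteins, the partners of HSP70, 6 were higher and 5 lower at 5 h in BMDM-WT, and 7 higher and 4 lower at 18 h. Dnaja2 and Dnaja1 rose by 2.13 and 1.99 at 5 h, and Dnajb4 and Dnajc9 fell by 1.29 and 0.97 (edgeR adjusted p = 1.5e-14, 1.0e-14, 9.5e-08 and 3.6e-06). At 18 h, Dnaja1 and Dnajb2 rose by 1.80 and 1.22, and Dnajc9 and Dnajb4 fell by 1.35 and 0.84 (edgeR adjusted p = 1.2e-13, 4.5e-08, 1.1e-08 and 6.3e-05). Between genotypes at 18 h, 6 were higher in BMDM-Nur77-KO and 1 lower. Dnajc2 and Dnajb4 led with 1.08 and 0.58, and Dnajc9 was the one below, at -0.50 (edgeR adjusted p = 0.00069, 0.012 and 0.040). With DESeq2's size factors Dnajc9 was at -0.48 (edgeR adjusted p = 0.051) and 0 were lower.

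The 13 HSP90 cochaperones and Trap1 included 7 higher and 3 lower at 5 h in BMDM-WT. Stip1, which links HSP70 to HSP90, rose by 1.13 and Ptges3 (p23) by 0.78, while Fkbp4 and Ppid fell by 0.55 and 0.39 (edgeR adjusted p = 3.2e-13, 7.3e-06, 1.5e-08 and 0.032). With library totals Ptges3 was at 0.15 (edgeR adjusted p = 0.26), and with DESeq2's size factors Ppid was at -0.31 (edgeR adjusted p = 0.10). At 18 h 5 were higher and 3 lower. Chordc1 rose by 0.84, and Fkbp5 and Ppid fell by 1.86 and 0.67 (edgeR adjusted p = 0.00049, 1.1e-13 and 0.00053). In BMDM-Nur77-KO against BMDM-WT at 18 h, Cdc37 and Stip1 were higher by 0.29 and 0.24 (edgeR adjusted p = 0.00068 and 0.041), of which Stip1 was not called with library totals (0.13, edgeR adjusted p = 0.19).

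Among the 7 mitochondrial partners and proteases, 6 were lower at 5 h in BMDM-WT, with Hscb at -1.75 and Grpel2, a nucleotide exchange factor of the mitochondrial HSP70, at -1.22 (edgeR adjusted p = 2.7e-11 and 2.1e-08). At 18 h 1 was higher (Grpel2, 0.37) and 3 were lower, with Clpb at -0.72 and Clpp at -0.35 (edgeR adjusted p = 0.015, 3.9e-06 and 0.045). Grpel2 was at 0.00 with library totals, and Clpp at -0.31 with DESeq2's size factors (edgeR adjusted p = 0.98 and 0.080). Lonp1 alone was called between genotypes at 18 h, higher by 0.23 in BMDM-Nur77-KO (edgeR adjusted p = 0.049), and at 0.13 with library totals (edgeR adjusted p = 0.30). Of the 14 genes of the cytosolic chaperonin CCT and of prefoldin, 6 were higher at 5 h, led by Vbp1 at 0.77 and Cct3 at 0.61 (edgeR adjusted p = 0.0042 and 1.8e-08), which stood at 0.13 and -0.02 with library totals (edgeR adjusted p = 0.58 and 0.79). By 18 h 8 were lower, with Cct5 at -0.66 and Cct6a at -0.55, and Pfdn6 was higher at 0.26 (edgeR adjusted p = 9.5e-11, 4.0e-07 and 0.045), while library totals put Pfdn6 at -0.11. Of 6 further small heat shock proteins, only Hspb6 was expressed enough to be tested, and it is named for that reason after its values were seen. In BMDM-WT it was called neither at 5 h (0.63) nor at 18 h (0.19), although the 5 h value passed with DESeq2's size factors (0.72, edgeR adjusted p = 0.041). It was called higher at 5 h in BMDM-Nur77-KO (1.01, edgeR adjusted p = 0.0035) and in the step from 1 h to 5 h, by 0.73 in BMDM-WT and by 1.29 in BMDM-Nur77-KO (edgeR adjusted p = 0.043 and 0.00051), and lower from 5 h to 18 h in BMDM-Nur77-KO (-0.68, edgeR adjusted p = 0.042). With library totals, of these 4 calls only the knockout step from 1 h to 5 h held (0.76, edgeR adjusted p = 0.021).

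Of the 4 genes of heat shock factors and their regulator, 2 were lower at 5 h in BMDM-WT, and 2 were higher and 1 lower at 18 h. Hsf1 held 16.1, 14.9, 13.4 and 17.4 CPM in BMDM-WT at 0 h and 9.31, 12.2, 11.5 and 11.7 CPM at 5 h, a log2 fold change of -0.47 (edgeR adjusted p = 0.016). The groups did not overlap, and it was not called at 1 h (-0.25) or 18 h (-0.28). Hsf2 rose by 0.77 at 18 h in BMDM-WT and by 0.47 in BMDM-Nur77-KO (edgeR adjusted p = 0.00030 and 0.017). Hsf4 fell by 1.84 at 5 h and by 1.63 at 18 h in BMDM-WT, and Hsbp1, an inhibitor of HSF1, rose by 0.28 at 18 h (edgeR adjusted p = 4.1e-06, 6.4e-06 and 0.024), where library totals gave -0.09. Hsf1 was called between genotypes at no time, and Hsf2 was called at 5 h, higher by 0.49 in BMDM-Nur77-KO (edgeR adjusted p = 0.049). RNA levels of a factor do not measure its activity.

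The genes with the most similar profiles across the 32 libraries, by Pearson's r of log2 CPM, are given as a description, since libraries of one group share their treatment. For Hspa1a they were Atf4 (0.925), H2-K2 (0.922) and Sqstm1 (0.902), and for Hspa1b they were H2-Q5 (0.923), C9orf72 (0.919) and Suco (0.893). Hspa8 was closest to Tbc1d9 (0.979), 4933430I17Rik (0.978) and Ctsh (0.965), Hsph1 to Plekha1 (0.974), Sla (0.960) and Gpcpd1 (0.957), and Dnajb1 to Anks1 (0.933) and Edem2 (0.931) among those given here. For Hsp90aa1 the nearest were Larp4b (0.905), 9930021J03Rik (0.886) and Ero1a (0.878), and for Hsp90ab1 Eprs (0.953), Arhgap10 (0.953) and Spic (0.950). Hspd1 was closest to Trim44 (0.944), Qser1 (0.917) and Dnajb14 (0.916), and Hspe1 to Eprs (0.954), Scaper (0.936) and Bnip3 (0.920). Among the heat shock protein genes themselves r was highest between Hsp90ab1 and Hspe1 (0.921) and between Hsp90ab1 and Hspa8 (0.883), it was 0.866 between Hspa1a and Hspa1b, and Hspd1 was negatively related to Dnajb1 (-0.64) and Hspa8 (-0.63).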

How the data were processed

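RNA was measured in 32 libraries of BMDMs, 4 in each of 8 groups of genotype and LPS time, taken from the labels. Libraries were made from poly(A) RNA with a strand-specific kit and sequenced in pairs. Per the labels and the submitters' processing notes, reads were converted with CASAVA 1.8.2, aligned with HISAT2 2.1.0 to mm10, filtered on mapping quality and tallied per RefSeq transcript with HOMER. The values the authors deposited are expected counts per transcript, made by this tally and not normalized: all are multiples of 0.5, and 28.6% are not whole, so they were rounded for the tests. Whether tallying used strand is not given in the sources used here. Of 42361 transcripts, 42198 were named through RefSeq and 70 through GENCODE, and the 93 unnamed ones, with 0.233 to 1.37% of a library's counts, were left out. The transcript with the highest mean count stood for each of 25067 genes. Counts per library were 8742362 to 15780926, and precision at low counts is limited by counting error.

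edgeR 4.0.16 (R 4.3.3) was run with TMM factors, a mean per group and the quasi-likelihood test in 17 comparisons. Genes with a mean over 1 RPKM in at least 1 group were tested (11279), p-values were adjusted by Benjamini-Hochberg over all of them, and an adjusted p under 0.05 was a call. The tests were tried on simulated data. RPKM used annotated transcript lengths, which 307 genes lacked. Ratios within libraries were compared by exact permutation tests. Alternatives were DESeq2 1.42.0, its size factors, filterByExpr, no filter, fits to the compared libraries only, replicate blocks, counts summed over transcripts, a log2 limit of 1 for LPS and 0.58 for genotype, each library left out, and library totals, the last chosen after seeing the data.

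The 10 genes and all lists were chosen with earlier results of these data known. All 10 are named whatever their values. From the other lists, the 2 called genes with the greatest rise and the 2 with the greatest fall are named for BMDM-WT at 5 h and 18 h and for the genotypes at 18 h, and for each heat shock protein gene the 3 genes with the highest correlation, except that 2 genes these rules select are not reported here. Same-numbered libraries did not deviate together within a genotype (median correlation -0.03, over 0.1 in 8 of 48 pairs), so the numbers were not used as pairs. Promoter sequences came from RefSeq, GRCm38.p6.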

Additional observations from a re-analysis of the deposited data

Results flagged for a closer look

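Each of the 10 heat shock protein genes was examined in each of the 8 groups for a library far from the other 3, by its gap to the nearest divided by the group's range. Of the 80 checks, 6 exceeded Dixon's 95% limit for 4 samples, and chance alone flags about 1 in 20.

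Hspa1b stood at 1.51 CPM in replicate 2 of BMDM-Nur77-KO at 0 h, below 3.33 to 3.45 CPM in the others (gap over range 0.938). Hsph1 reached 122 CPM in replicate 4 of BMDM-Nur77-KO at 18 h, against 97.1 to 99.2 CPM (0.915). Dnajb1 was at 23.9 CPM in replicate 2 of BMDM-WT at 0 h, against 27.2 to 27.4 CPM (0.942), and Hsp90aa1 at 342 CPM in replicate 2 of BMDM-WT at 5 h, against 374 to 380 CPM (0.837). The other 2 concern Hspb1 in replicate 2 of BMDM-WT. At 0 h its 0.0518 CPM rests on 1 count, as in the other 3 libraries (0.846), and at 5 h its 0.855 CPM rests on 7 counts, against 0 or 1 in the others (0.867).

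The response of Hspa1a to 18 h of LPS differed between the genotypes, with an interaction of 0.82 on the log2 scale (edgeR adjusted p = 0.020). Over the alternatives that left out 1 library, the value ran from 0.70 to 0.93 and the highest edgeR adjusted p was 0.073.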

How the results depend on the processing

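Of 2754 values of single genes under the alternatives, 2632 kept their direction and side of the threshold or changed sign only where neither passed it (70), 43 gained a call, 67 lost one and 12 reversed. All 12 reversals came from library totals without TMM, a scaling chosen after seeing the data. At 5 h against 0 h it gave -0.19 for Hspa8, -0.41 for Dnajb1 and -0.29 for Hsp90aa1 in BMDM-WT, and -0.25 for Hspa8, -0.43 for Hsp90aa1 and -0.62 for Hsp90ab1 in BMDM-Nur77-KO. At 5 h against 1 h it gave -0.35 for Hspa8 and -0.42 for Dnajb1 in BMDM-WT, and -0.41 for Hspa8 and -0.45 for Hsp90aa1 in BMDM-Nur77-KO. At 18 h against 0 h, Hsp90aa1 was at -0.021 in BMDM-WT and -0.15 in BMDM-Nur77-KO. By construction this scaling shifts all genes by the medians given in the report.

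Of 323 counts of heat shock protein genes called, 295 stayed within 1.5 times the reported count. With library totals, 9 were called from 1 h to 5 h in either genotype. The median log2 fold change of all genes was then -0.56 in BMDM-WT and -0.62 in BMDM-Nur77-KO. In fits to the compared libraries only, the count from 1 h to 5 h was 6 in BMDM-WT and 2 in BMDM-Nur77-KO, and between genotypes at 5 h it was 1, and the cause was not tested. The share of all genes called in these smaller fits was not counted, so these moves cannot be read as particular to the heat shock protein genes. Requiring a log2 fold change over 1 left 2 at 1 h, 2 at 5 h and 3 at 18 h in BMDM-WT. Of all genes, 5.19%, 33.7% and 27.4% passed there. From 5 h to 18 h in BMDM-WT it left 3, against 30.1% of all genes. In BMDM-Nur77-KO it left 3 at 5 h and 3 at 18 h, against 32.6% and 31.8%. It left 2 from 1 h to 5 h and 4 from 5 h to 18 h in BMDM-Nur77-KO, against 31.2% and 28.6%. Requiring 0.58 between genotypes left 1, 1, 2 and 2 at 0, 1, 5 and 18 h. Of all genes, 4.81%, 2.86%, 8.73% and 9.82% passed there. Leaving out 1 library gave 0 to 2 called between genotypes at 1 h, 2 to 5 at 5 h, 4 to 7 at 18 h, and 0 to 1 for the interaction at 18 h. The shares of all genes called in the fits without 1 library were not counted.

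With the replicate block, 3 were called from 1 h to 5 h in BMDM-Nur77-KO and 3 between genotypes at 5 h, in place of 4 each. The block within genotype gave 3 for the former and 5 at 5 h against 0 h in BMDM-Nur77-KO, in place of 6. The replicate block changed no other count. The shares of all genes called with these blocks were not counted.

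Counting depth limits Hspb1, with at most 11 counts, and Hspa1a and Hspa1b at 0 h, with 17 to 45 counts per library.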
